A study of Mus musculus with 4 samples.

Results

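The 10 glycolytic enzyme genes Hk2, Gpi1, Pfkl, Aldoa, Tpi1, Gapdh, Pgam1, Eno1, Pkm and Ldha were examined for open chromatin in mouse embryonic stem cells (ESCs). They were chosen by name, 1 widely used form for most steps of the pathway, and are 10 of 21911 protein-coding genes in the annotation used here. Gapdh was on the list because earlier work on these files had found no peak at its start, so the question was whether its neighbours in the pathway lack one too.

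Glycolysis splits glucose into pyruvate in the cytosol and yields ATP and NADH. Lactate dehydrogenase then reduces pyruvate to lactate, which restores the NAD+ that the Gapdh step consumes. Pluripotent stem cells are known for a high rate of glycolysis, and Gapdh is a common reference gene in expression assays because most cells transcribe it. Their expression was not measured in the files used here.

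The assay was ATAC-seq, in which a transposase cuts and tags open DNA, and a peak is an interval where tagged fragments accumulate. The cells were of the E14 line, grown in serum with LIF, infected with pLKO lentivirus and selected with puromycin. The virus of 1 library carried a hairpin against GFP (shGFP) and that of the other 3 libraries a hairpin against luciferase (shLuc replicates 1, 2 and 3), and neither target is a mouse gene. The shGFP library had no replicate, and the labels do not say whether the shLuc replicates were separate cultures, so that their SD may measure technical spread only.

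The lists held 41943 peaks for shGFP and 17860, 41401 and 31585 peaks for shLuc replicates 1, 2 and 3. They give positions only, so that the width of a peak was its only measure and the depth behind a listed or unlisted peak is unknown. An unlisted peak therefore means that none passed the authors' peak calling, not that the chromatin was closed. All coordinates are on GRCm38 (mm10), counted from 1. A promoter peak is a peak with any base within 1 kb of the start of any GENCODE vM21 transcript of the gene, and a distance of 0 means that the peak covers a start.

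Of the 10 genes, 8 had a promoter peak in at least 1 library, and Gapdh and Tpi1 had none in any. Gapdh was therefore not alone, but it had only 1 companion. Hk2, Pfkl, Aldoa, Pgam1 and Pkm had a promoter peak in all 4 libraries, Eno1 and Ldha in all but shLuc replicate 1, and Gpi1 in shGFP and shLuc replicate 2. Among all protein-coding genes, 35.3% had a promoter peak in no library and 42.5% in all 4. Read against those shares, 2 of 10 members in none and 5 of 10 in all 4 lie within 2 genes of the background, which is no result about the members. Gapdh was listed because no peak had been found at its start in these files. Its lack of a promoter peak was thus fixed beforehand, here and in every count of members below.

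By library, 8 members had a promoter peak in shGFP and 5, 8 and 7 in shLuc replicates 1, 2 and 3. The matching shares of all protein-coding genes were 60.7%, 46.8%, 60.3% and 55.2%, so that the library with the shortest list had the fewest for the members and for all genes. The shLuc mean was 6.67 ± 1.53 members (SD, n = 3), and shGFP was 1.33 members higher, a difference smaller than the SD. An exact permutation test of 1 library against 3 cannot go below p = 0.25, so none was run.

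**Figure D1:**
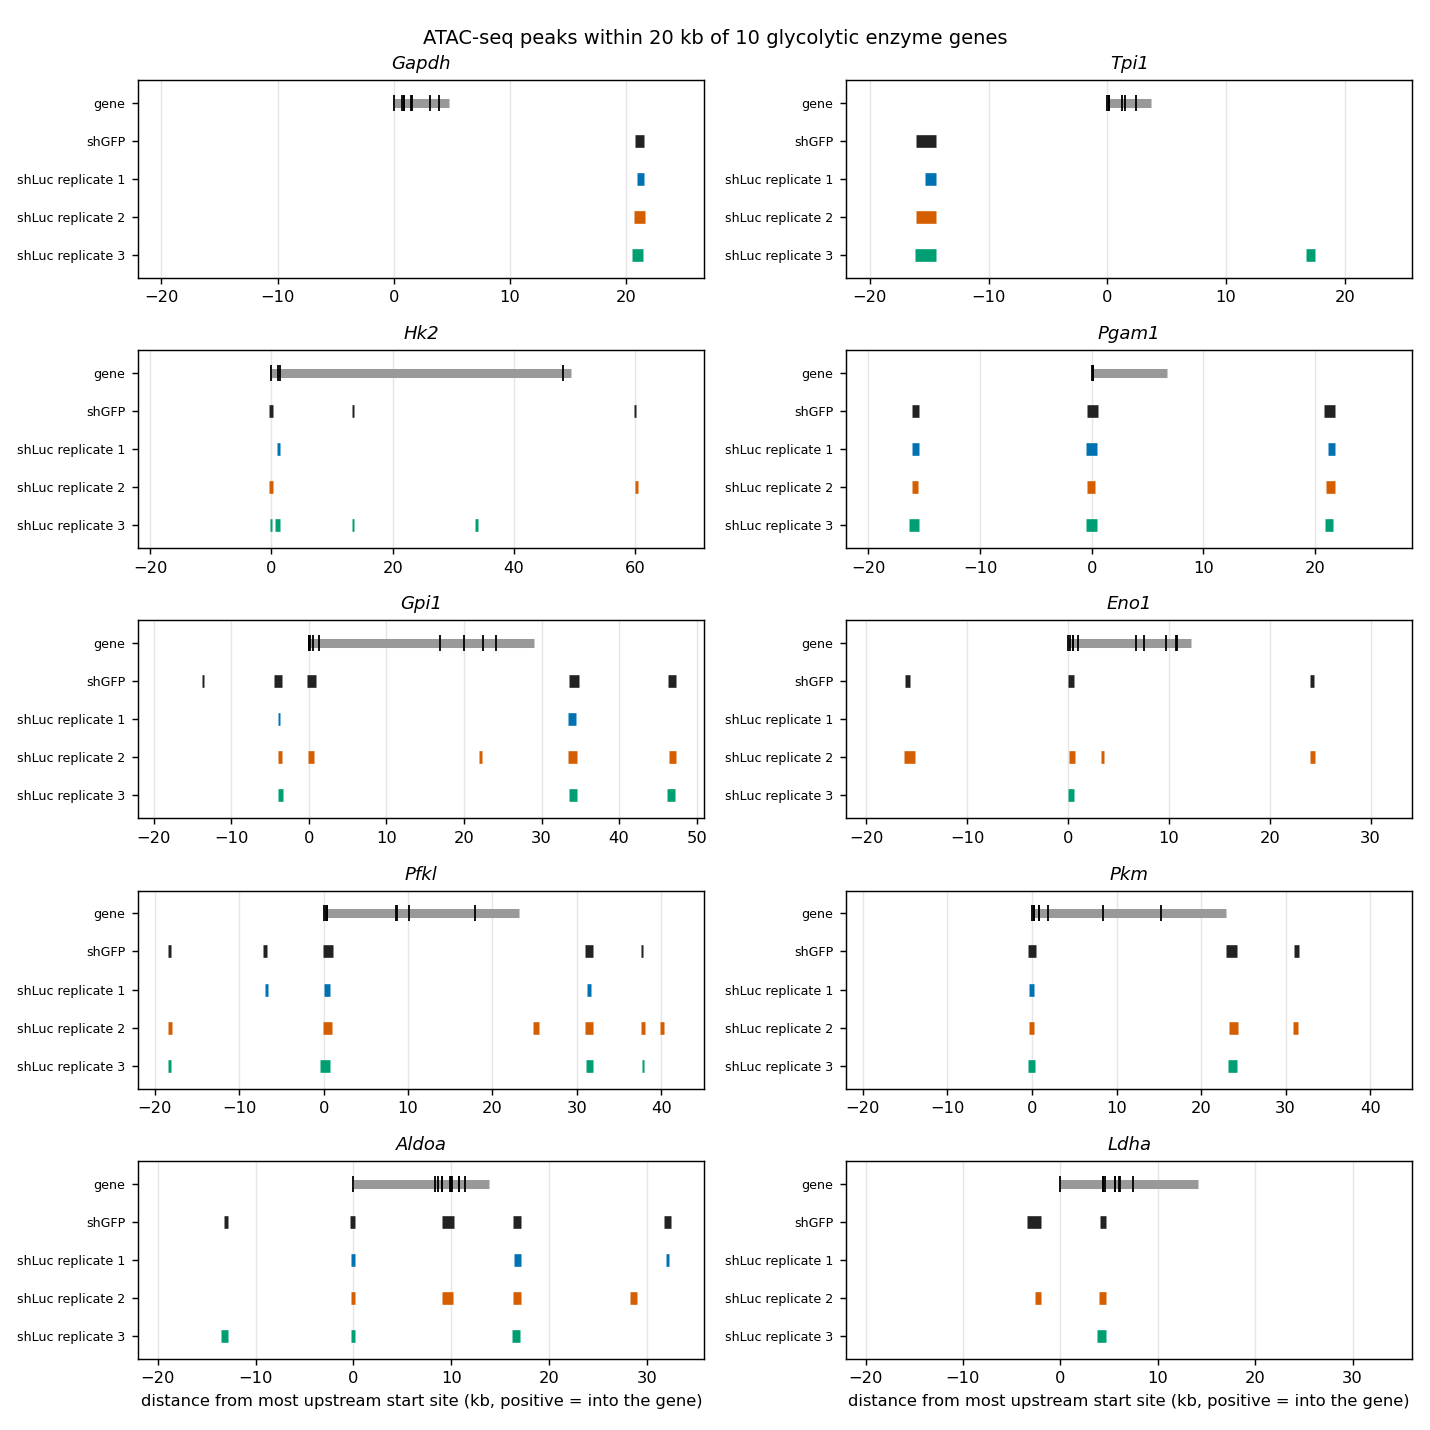
ATAC-seq peaks around each of the 10 genes, 1 row per library, against the distance in kb from the most upstream start site, positive into the gene. Grey bars are genes, black ticks are annotated starts and coloured blocks are peaks drawn to scale. Gapdh and Tpi1 have no block at or near a start in any of the 4 libraries, whereas the blocks of Pfkl, Pgam1 and Pkm line up at the start in all 4.

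Gapdh, which oxidises glyceraldehyde 3-phosphate and makes the NADH of the pathway, lies at chr6:125161715-125166467 on the minus strand (ENSMUSG00000057666.18, 13 transcripts with 10 distinct starts). Its nearest peak was 16856 bp from a start in shGFP and 17037, 16747 and 16606 bp away in shLuc replicates 1, 2 and 3. In each library this was also the only peak within 20 kb of the gene. It lay beyond the 3′ end of Gapdh and covered a start of Iffo1. That peak was 725 bp wide in shGFP and 532, 947 and 943 bp wide in the shLuc libraries, and was thus found next to Gapdh in every library. Taking all 4 lists together, no peak touched chr6:125145922-125191363, a run of 45442 bp around the Gapdh start. Starts of Iffo1 and Ncapd2, genes with a promoter peak at another start in all 4 libraries, also lay in this run.

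Tpi1, which interconverts both triose phosphates just before the Gapdh step, lies at chr6:124810586-124814296 on the minus strand (ENSMUSG00000023456.15, 6 starts). Its nearest peak was 14422 bp from a start in shGFP and 14439, 14437 and 14298 bp away in shLuc replicates 1, 2 and 3. In every library a peak upstream of Tpi1 covered a start of Usp5, with widths of 1712, 906, 1697 and 1793 bp in the same order. The distance of 14298 bp in shLuc replicate 3 belongs to a further peak of 779 bp on the other side, 11073 bp from the nearest start of Spsb2. The peak-free run around the Tpi1 start, chr6:124797589-124828710, was 31122 bp long and also held starts of Spsb2 and Usp5.

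Such distances are common among genes without a promoter peak. Of all protein-coding genes, 18.4% had their nearest peak more than 14000 bp from every start in all 4 libraries, 21.9% more than 10000 bp and 27.6% more than 5000 bp. For 10000 coding genes with an uncovered start the median peak-free run was 57878.5 bp. Of these, 57.7% had a longer run than Gapdh and 69.5% a longer one than Tpi1.

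The bases upstream of both genes are shown with those of 3 members that had a promoter peak, because they let the presence of a peak be set beside the sequence. They come from RefSeq promoter windows on GRCm38, 5′ to 3′ on the strand of the gene, and end just before the RefSeq start except for Tpi1. Gapdh is chr6:125165774-125166023 on the minus strand, Pgam1 is chr19:41911621-41911870 and Ldha is chr7:46845554-46845803, both on the plus strand. Tpi1, chr6:124814297-124814408, and Pfkl, chr10:78009808-78010004, both on the minus strand, were shortened by 138 and 53 bases that lie in annotated exons. Capitals mark the motifs ACGTG and GCGTG (cores of the hypoxia response element), CACGTG (E-box) and GGGCGG (GC box) in either orientation.
Gapdh: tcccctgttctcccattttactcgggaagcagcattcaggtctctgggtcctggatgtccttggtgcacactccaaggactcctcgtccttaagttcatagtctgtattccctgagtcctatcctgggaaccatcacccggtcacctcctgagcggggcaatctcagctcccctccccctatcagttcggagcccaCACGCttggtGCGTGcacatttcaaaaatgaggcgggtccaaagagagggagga
Tpi1: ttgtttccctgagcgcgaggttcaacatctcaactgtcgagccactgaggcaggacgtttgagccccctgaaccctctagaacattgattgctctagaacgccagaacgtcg
Pgam1: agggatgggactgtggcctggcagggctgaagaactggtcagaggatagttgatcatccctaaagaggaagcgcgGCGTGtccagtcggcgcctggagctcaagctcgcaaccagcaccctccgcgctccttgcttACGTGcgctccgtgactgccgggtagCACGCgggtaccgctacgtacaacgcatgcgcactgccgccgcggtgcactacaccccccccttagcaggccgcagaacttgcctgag
Pfkl: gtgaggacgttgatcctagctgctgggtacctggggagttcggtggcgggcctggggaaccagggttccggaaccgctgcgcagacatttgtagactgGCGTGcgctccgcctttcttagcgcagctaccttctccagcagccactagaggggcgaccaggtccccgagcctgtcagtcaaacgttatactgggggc
Ldha: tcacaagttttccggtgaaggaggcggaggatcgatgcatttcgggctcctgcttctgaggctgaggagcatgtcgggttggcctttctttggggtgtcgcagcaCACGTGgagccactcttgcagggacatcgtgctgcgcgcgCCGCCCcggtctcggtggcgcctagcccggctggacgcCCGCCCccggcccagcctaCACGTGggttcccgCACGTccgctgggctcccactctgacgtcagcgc
The Gapdh stretch held the GCGTG core once on each strand, 54 and 44 bases before the start, and no GC box. The printed Tpi1 stretch held none of these motifs, and its GC box stood 67 bases before the RefSeq start in the exonic bases not shown. Ldha held the E-box at 145 and 48 bases and the GC box at 105 and 67 bases before the start. The windows of Pgam1 and Pfkl, each with a peak over it in all 4 libraries, held no GC box and no E-box. Pgam1 held GCGTG at 2 places and Pfkl at 1.

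Gapdh and Tpi1 are neighbours on chromosome 6 as well as in the pathway. Their most upstream starts are 352171 bp apart, and 18 other protein-coding genes start between them. Of these, 8 had a promoter peak in all 4 libraries, 5 in 1 to 3 libraries and 5 in none. The segment held 15 peaks in shGFP and 13, 16 and 14 across shLuc replicates 1, 2 and 3, so it was not free of peaks. Within 200 kb of the Gapdh start, 7 of 17 other coding genes had a promoter peak in all 4 libraries and 5 had none, and around Tpi1 the counts were 10 and 4 of 23. Genes without one near Gapdh included Chd4, a chromatin remodeler, and Cd27, a receptor of lymphocytes.

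**Figure D2:**
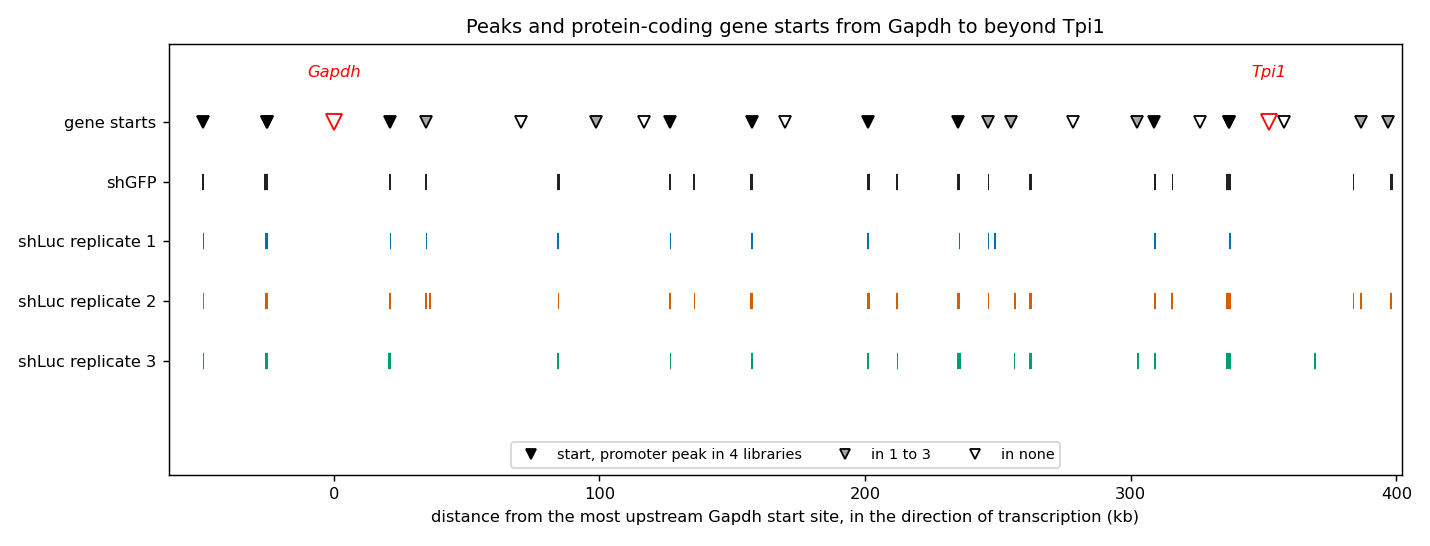
Peaks of each library and the most upstream starts of protein-coding genes, against the distance in kb from the most upstream Gapdh start in the direction of transcription. Black, grey and white triangles are genes with a promoter peak (at any of their starts) in 4, in 1 to 3 and in no library, and Gapdh and Tpi1 are drawn in red. Neither red triangle has a peak at it, and peaks and longer stretches without a peak alternate along the 352171 bp between both genes.

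At the first step, Hk2, the hexokinase that traps glucose as glucose 6-phosphate, lies at chr6:82725025-82774454 on the minus strand. Its widest promoter peak was 633 bp in shGFP and 519, 608 and 820 bp in shLuc replicates 1, 2 and 3. The peaks did not all lie at the same start. The most upstream start, at position 82774454, was covered in shGFP and shLuc replicates 2 and 3, while shLuc replicate 1 listed only chr6:82773001-82773519 over a start further inside the gene, 935 bp from the most upstream one. In shLuc replicate 3 both places had a peak, of 392 bp at the most upstream start and 820 bp over a pair of inner starts.

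Pfkl encodes the liver form of phosphofructokinase, which commits sugar to glycolysis, and lies at chr10:77986947-78010083 on the minus strand. Its promoter peak was 1242 bp wide in shGFP and 763, 1106 and 1276 bp wide in the shLuc libraries, the widest promoter peak of any member in shGFP and shLuc replicates 2 and 3. All 4 libraries shared 763 bp, chr10:78009305-78010067. It contains the whole printed Pfkl stretch, whose GCGTG core lies 99 bases before the RefSeq start.

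Aldoa, the aldolase that splits the phosphorylated sugar into a pair of trioses, has a pair of GENCODE entries on the minus strand of chromosome 7. The longer entry (ENSMUSG00000114515.2, chr7:126800790-126809108) had a peak over its only start in every library, 534 bp wide in shGFP and 368, 373 and 431 bp in the shLuc libraries. The other entry (ENSMUSG00000030695.16, chr7:126795234-126800751) holds 12 of the 13 starts. It had a promoter peak of 1167 bp in the shGFP library and of 1032 bp in shLuc replicate 2. In shLuc replicates 1 and 3 the nearest peak to it was 5084 and 4884 bp away, at a start of Ppp4c. Aldoa thus counts as present in all 4 libraries through its far upstream start, and in 2 by the shorter entry alone.

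Pgam1, a phosphoglycerate mutase, lies at chr19:41911923-41918660 on the plus strand and showed the most even pattern. A single peak covered all 3 of its starts in every library, 943 bp wide in shGFP and 997, 697 and 1012 bp wide in the shLuc libraries. The 697 bp common to all, chr19:41911542-41912238, contain the whole printed Pgam1 stretch. In shLuc replicate 1, the shortest list, this was the widest promoter peak of any member.

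Pkm encodes the muscle-type pyruvate kinase of the last ATP-yielding step and lies at chr9:59656368-59679375 on the plus strand. Its promoter peak was 927 bp wide in shGFP and 594, 663 and 831 bp wide in the shLuc libraries. The 594 bp shared by all covered 5 of the 11 starts. At the other end of the gene a peak covered a start of Gramd2 in 3 libraries, and in shGFP that peak, 1276 bp wide, reached into the last Pkm exon. In shLuc replicates 2 and 3 it ended 277 and 173 bp short of Pkm.

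Gpi1, the isomerase that turns glucose 6-phosphate into fructose 6-phosphate, lies at chr7:34201330-34230336 on the minus strand. The shGFP list had a promoter peak of 1106 bp and that of shLuc replicate 2 a peak of 796 bp, both over 6 of its 11 starts. In shLuc replicate 2 a second peak of 447 bp, chr7:34207972-34208418, lay 74 bp from an inner start. No promoter peak was listed in shLuc replicates 1 and 3. All 4 libraries had a peak upstream of the gene, 3490 bp from the nearest start in shGFP and 3701, 3478 and 3288 bp away in the shLuc libraries. This upstream peak was 1000, 290, 514 and 666 bp wide in the same order. In the libraries without the promoter peak the upstream one was thus still listed.

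Eno1, the most widely used enolase, lies at chr4:150236721-150248879 on the plus strand. Its promoter peak was 595 bp wide in shGFP and 572 and 569 bp in shLuc replicates 2 and 3, a narrow range. They shared 432 bp, chr4:150236867-150237298, over 3 of the 10 starts. In shLuc replicate 1 the nearest peak was 23845 bp away, and no peak lay within 20 kb of the gene.

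Ldha, the lactate dehydrogenase subunit that makes lactate in most growing cells, lies at chr7:46841475-46855627 on the plus strand. Its promoter peak was 643 bp wide in shGFP and 722 and 861 bp in shLuc replicates 2 and 3. Each covered a cluster of 7 starts between positions 46845839 and 46846097, and the shared 617 bp, chr7:46845508-46846124, contain the whole printed Ldha stretch. The most upstream annotated start, at 46841475, was not covered in any library. A second peak upstream of that start was listed in shGFP, 1438 bp wide and 2032 bp away, and in shLuc replicate 2, 524 bp wide and 2025 bp away. In shLuc replicate 1 the nearest peak was 45174 bp from a start.

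**Figure D3:**
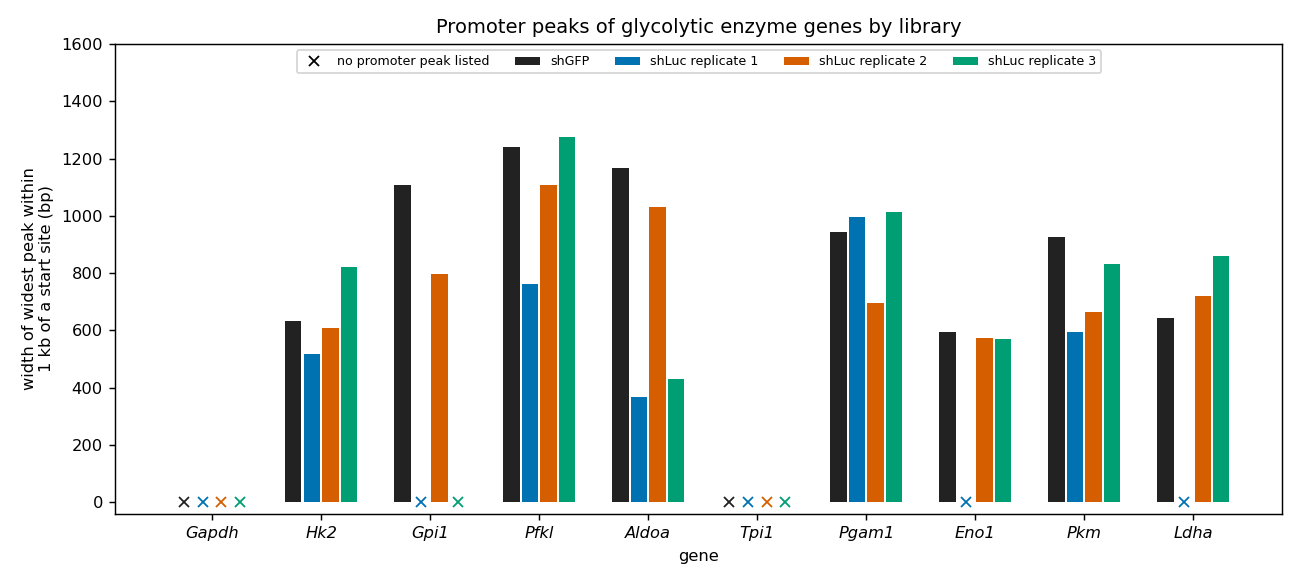
Width in bp of the widest promoter peak of each gene, 1 bar per library, with a cross at 0 where none was listed. The 4 crosses of Gapdh and Tpi1 stand beside 4 bars each for Hk2, Pfkl, Aldoa, Pgam1 and Pkm, whose heights range from 368 bp (Aldoa, shLuc replicate 1) to 1276 bp (Pfkl, shLuc replicate 3).

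The members' promoter peaks were of ordinary width. Their median was 935 bp in shGFP and 594, 709.5 and 831 bp in the shLuc libraries. Over all peaks within 1 kb of a coding gene's start the medians were 921 bp and 683, 888 and 863 bp. The member medians, taken over the widest peak of 5 to 8 genes, were higher in shGFP and lower in the 3 shLuc libraries.

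Gene bodies were examined next. Counting any peak that overlaps the gene, the members with one again numbered 8 for shGFP and 5, 8 and 7 for shLuc replicates 1, 2 and 3, and each gene had one in as many libraries as it had a promoter peak. Every promoter peak of a member also overlapped its gene, so these gene body counts include the promoter peaks and could not fall below their counts. The matching shares of all coding genes were 66.8%, 50.8%, 66.5% and 60.8%, with 46.7% in all 4 libraries (5 members) and 29.0% in none (2 members). More than 1 kb from every start of the gene, 2 members had a gene body peak in shGFP and 0.667 ± 0.577 (SD, n = 3) in shLuc. By the same definition 27.6% of all coding genes had one in shGFP and 11.8%, 27.3% and 21.6% in shLuc replicates 1, 2 and 3, so that the members were near the background. The members' peaks were intronic peaks of Hk2, 270 bp wide in shGFP and 277 and 428 bp in shLuc replicate 3, an intronic peak of Eno1, 338 bp in shLuc replicate 2, and the peak at the 3′ end of Pkm in shGFP.

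Within 20 kb of the gene, a peak was listed for 10 members in shGFP and for 8, 10 and 10 in shLuc replicates 1, 2 and 3 (9.33 ± 1.15, SD, n = 3). The shares of all coding genes were 84.8%, 68.7%, 84.8% and 80.0%, with 66.0% in all 4 libraries (8 members) and 12.2% in none (0 members). Eno1 and Ldha in shLuc replicate 1 were the cases without. Flanking peaks often covered starts of other coding genes, such as Pdcd2l beside Gpi1, Ppp4c beside Aldoa, and Rrp12 and Exosc1 on either side of Pgam1, each of these in all 4 libraries. Hk2, Eno1 and Ldha had no flanking peak of that kind.

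Promoters rich in the dinucleotide CpG are often open whether or not the gene is in use, so the members were next set beside genes of like base composition. RefSeq gave 21263 windows of the 250 bases before a start of a coding gene, of which 16 belonged to the members. A peak overlapped 53.0% of all windows in shGFP and 40.0%, 52.3% and 47.9% across shLuc replicates 1, 2 and 3, and 43.3% had a peak in no library. Of the 8827 windows with at least 50% GC and a CpG observed/expected ratio of at least 0.6, only 8.37% had a peak in no library, against 68.1% of the other 12436.

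The Tpi1 window, of whose 250 bases 138 lie in annotated exons, belonged to the CpG-rich class. It had 58.4% GC, 13 CpGs and a ratio of 0.633, just above the limit of 0.6. It was 1 of the 739 windows of that class, 8.37%, without a peak in any library, and a window inside Pkm was another. The Gapdh window had 55.6% GC but 8 CpGs and a ratio of 0.422, which put it outside the class. Of windows with a ratio between 0.4 and 0.5, 54.4% were overlapped in shGFP and 32.3%, 53.8% and 48.2% across shLuc replicates 1, 2 and 3. Pgam1, with a ratio of 0.86, and Ldha, with 0.886, lay among the CpG-rich windows, and Pfkl, with 0.595 and a peak in all 4 libraries, just below the class limit.

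**Figure D4:**
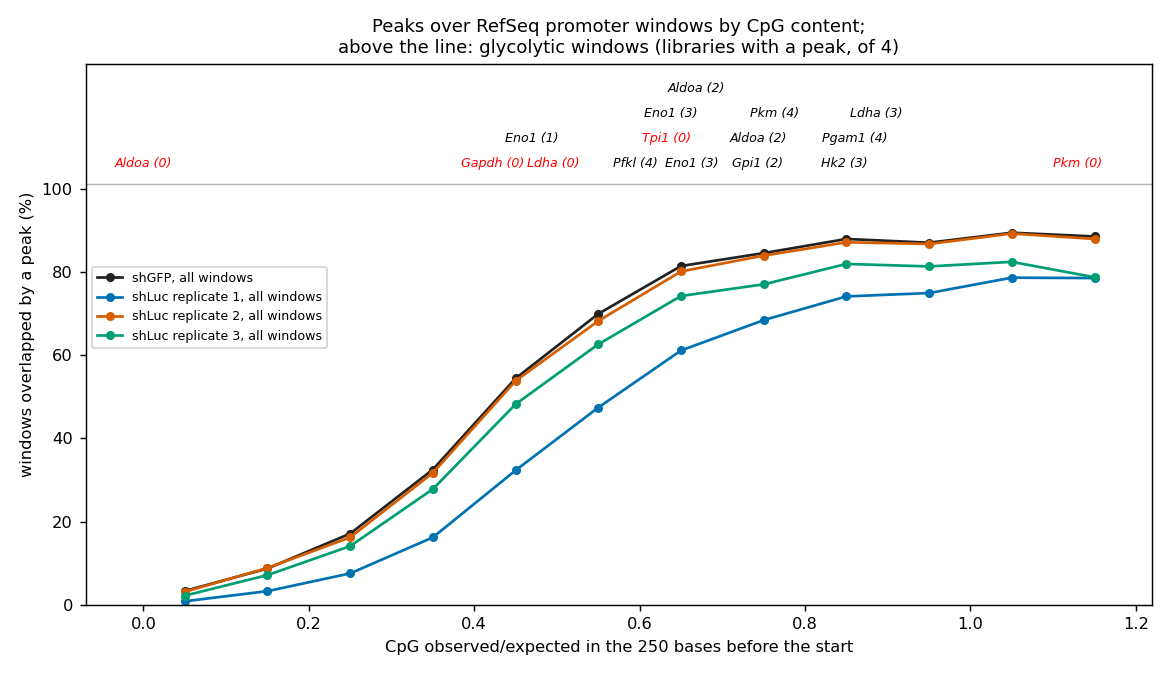
Percent of promoter windows of all coding genes overlapped by a peak, by CpG observed/expected ratio and library, with each member window named above the line at its own ratio and the number of libraries with a peak over it in brackets (red where 0). In shGFP the curve rises from 3.32% below a ratio of 0.1 to 81.4% between 0.6 and 0.7, where Tpi1 stands in red beside windows of Eno1 and Aldoa with peaks.

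The 5 motifs were then counted in all windows. The 16 member windows include a pair of Aldoa windows and a pair of Eno1 windows that overlap, so a site in an overlap counts in both windows. The GC box GGGCGG was found in 9 of the 16 member windows, that of Tpi1 among them, and 42.6% of all windows. GCGTG was in 7 of 16, that of Gapdh among them, and 33.8%. ACGTG was in 6 of 16 and 17.8% of all windows, in Aldoa, Hk2, Ldha, Pgam1 and Pkm. The Pkm window that held it had a peak over it in no library, whereas the Pkm window with a peak in all 4 held none. The E-box CACGTG, which contains ACGTG on both strands, was in 1 window, that of Ldha, and in 6.63% of all. The TATA box TATAAA was in none of the 16 and in 11.6% of all windows. Each motif was searched on both strands, and a match describes letters in a window, not a bound site.

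Sequence that occurs more than once bears on these lists, because the study placed reads with several equally good positions at random. Around the RefSeq starts of Gapdh and Tpi1 it was not found: within 1 kb of the start 0% of 50-base words occurred elsewhere in the genome, the same as the median of all windows. Pgam1, with a peak in all 4 libraries, had 7.74% there. Over the whole gene the repeated share was 21.1% for Gapdh, 9.8% for Tpi1 and 22.9% for Pgam1, against 1.2% to 9.19% for the other 7 members. The part of repeated sequence in the missing peaks was not tested.

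Further genes for enzymes of the pathway, forms of the members' enzymes and both phosphoglycerate kinase genes, were described by the same count. Of these 21 genes, 6 had a promoter peak in all 4 libraries (28.6%) and 11 in none (52.4%), against 42.5% and 35.3% of all coding genes. Hk1, Pfkm, Aldoc, Pgk1, Bpgm and Eno4 had one in all 4, Pfkp and Ldhb in all but shLuc replicate 1, and Eno2 and Pklr in shGFP and shLuc replicate 2. Pgam2, Eno3, Pgk2, Ldhc and Gapdhs were among the genes with none. Peak widths of the 6 genes found in all 4 libraries ran from 342 bp (Pgk1, shLuc replicate 3) to 1300 bp (Eno4, shLuc replicate 3). Nearest peaks of the 11 without one ran from 1215 bp (Eno3, shLuc replicate 2) to 332632 bp (Pgk2, shLuc replicate 1) from a start. Gapdhs, the sperm form of Gapdh and the only other gene for that step, had its nearest peak 3126 bp from a start in shGFP and 3161, 3101 and 2538 bp away in the shLuc libraries.

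By enzyme step, 7 of the 11 steps had at least 1 form with a promoter peak in all 4 libraries and 9 had a form with one in any. The exceptions were triosephosphate isomerase, with Tpi1 alone, and glyceraldehyde-3-phosphate dehydrogenase, with Gapdh and Gapdhs. A step pooled 1 to 5 genes, so a step with more genes could count more easily, and no background share was computed for steps. Enolase counted among the 7 through Eno4 alone. Pgk1, the phosphoglycerate kinase that follows Gapdh and is not among the 10, had promoter peaks of 646, 609, 1273 and 342 bp in shGFP and shLuc replicates 1, 2 and 3. The adjoining step thus had a peak in every library. For lactate dehydrogenase no form had one in all 4 libraries, and for the isomerase step Gpi1 is the only gene.

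Genes that supply or steer the pathway differed from list to list. Of 12 regulators, 11 had a promoter peak in all 4 libraries, among them Hif1a and Arnt, the subunits of the hypoxia-inducible factor, all 4 Pfkfb genes, which set the level of the phosphofructokinase activator, and all 4 Pdk genes, which restrain pyruvate oxidation. Myc, a transcription factor that activates many glycolytic genes, had one in shLuc replicate 2 only, 860 bp wide. Of 5 genes for pyruvate entry to mitochondria, 4 had one in all 4 libraries and Pdha1 in 3. Of all coding genes, 42.5% had one in all 4 libraries and 35.3% in none. These short lists, and those of the next paragraph, were picked by name and not matched for CpG content.

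Transporters were less evenly listed. Slc16a1 and Slc16a3, which carry lactate, had a promoter peak in all 4 libraries. The glucose carriers Slc2a1, Slc2a3 and Slc2a4 had one in shGFP and shLuc replicate 2 but not in shLuc replicates 1 and 3, the pattern of Gpi1, and Slc2a2, the carrier of liver and pancreas, in none. Slc16a7 had one in all but shLuc replicate 1. Of 6 genes of glucose synthesis, Pcx and Fbp2 had one in all 4 libraries and Pck1 and G6pc in none, while Pck2 had one in 3 and Fbp1 in 2.

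**Figure D5:**
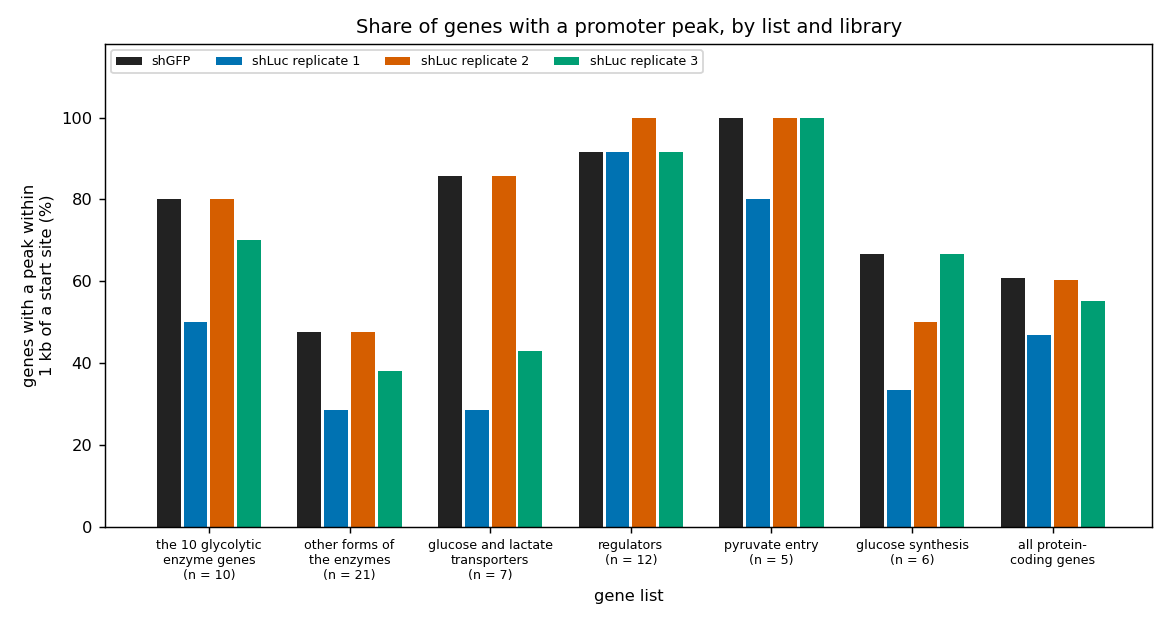
Percent of genes of each list with a promoter peak, 1 bar per library, with all 21911 protein-coding genes at the right. The 10 enzyme genes stand at 80.0%, 50.0%, 80.0% and 70.0% beside 60.7%, 46.8%, 60.3% and 55.2% of all coding genes, the other enzyme genes (labelled other forms) below these shares in every library and the regulators above them. Gapdh, whose lack of a promoter peak was known when it was listed, is counted among the 10.

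The label of the cells could not be checked by expression, and promoter peaks gave a mixed picture. Of 12 ESC markers, Zfp42 and Tfcp2l1 had one in all 4 libraries and 6, Pou5f1, Sox2 and Nanog among them, in none. Of 7 fibroblast markers, which feeder cells would bring, 2 had one in all 4 libraries and 4 in none, and of 7 lineage markers 1 and 5. The shares in all 4 libraries were thus 16.7%, 28.6% and 14.3%, against 42.5% of all coding genes. Those in none were 50.0%, 57.1% and 71.4%, against 35.3%, so the counts did not set the ESC markers apart. Some genes that define ESCs thus also lacked a listed promoter peak, as Gapdh and Tpi1 did.

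For some members the pattern changed when only the widest peaks were kept or 1 library was left out, and for others it did not. Keeping the widest peaks shortens a list by removing its narrow peaks, so that list length and peak width cannot be told apart here. With the widest 17860 peaks of each list, the members with a promoter peak fell to 5 in shGFP and to 4.67 ± 0.577 (SD, n = 3) in shLuc, and only Pfkl kept one in all 4 libraries. Eno1, whose peaks were narrow, then had none in any library. Without shLuc replicate 1 the members with a promoter peak in all remaining libraries were 7 in place of 5, with Eno1 and Ldha added. Gapdh and Tpi1 had none under every setting tried, but no setting could have given them one. All settings but the distance of 5 kb only narrow the search or take peaks, starts or libraries away. At 5 kb their nearest peaks, at least 16606 bp from a Gapdh start and 14298 bp from a Tpi1 start, stayed out of reach.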

How the data were processed

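ATAC-seq peak lists of 4 libraries of E14 ESCs (1 shGFP, 3 shLuc, grouped by their labels) were used. The deposited files hold the chromosome, start and end of each peak, with no score. The submitters' processing notes name bcl2fastq, Bowtie2 and MACS2 without versions or roles, and the peak threshold is not given in the sources used here. Per the study's methods, reads were aligned to mm10, ties were placed at random and only concordant pairs were kept, under a heading shared with ChIP-seq.

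Distances from peaks to GENCODE vM21 starts on 21 chromosomes were computed with Python 3.11.15 and numpy 2.4.6, repeated words with numba 0.67.0 and figures with matplotlib 3.10.9. Sequences and windows came from RefSeq (GRCm38.p6). The functions were tested on simulated data. Members, pathway lists and motifs were chosen with earlier results of these data known. The text names all 10 members, genes of the lists by their number of libraries, and for flanking peaks the gene with the nearest start. Chd4 and Cd27 were named after their values were seen. Some genes of the lists are counted but not reported by name here. No test was run. Alternatives were other distances, start sets, peak centres, shorter lists and leaving out each shLuc library.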

Additional observations from a re-analysis of the deposited data

How the results depend on the processing

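No paired analysis was possible because the single shGFP library carries no replicate number and no test was run. Of 217 comparisons of 23 results with an alternative, 191 stayed within the SD of shLuc (counts: within 1.5 times), 26 went beyond it and none reversed.

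With the widest peaks of each list at equal length, members with a promoter peak were 5 in shGFP and 1 in every library, the other enzyme genes in every library were 3, members with a gene body peak in shGFP were 5, and the share of coding genes with a promoter peak was 47.3% in shGFP and 46.4% in shLuc. With the widest 50% of each list, the same counts were 5, 2, 2 and 5, the shLuc means were 4.33 for promoter and 4.33 for gene body peaks, and the shares of coding genes were 51.2% and 41%. Fewer peaks enter both settings by construction. A distance of 5 kb raised the share of coding genes to 67.9% in shGFP, and Gpi1 to 4 libraries. Outside 1 kb of any start, gene body peaks remained in 2 members in shGFP and 0.667 in shLuc. With the most upstream annotated start alone, Ldha had no promoter peak, so members with none were 3.

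Leaving out each shLuc library in turn gave shLuc means of 6 to 7.5 members and 51% to 57.7% of coding genes, 5 to 7 members and 6 to 8 other enzyme genes in every library, 6 to 7.5 members with a gene body peak and 9 to 10 within 20 kb, and a difference between the hairpins of 0.5 to 2 members. That difference exceeded the SD of the remaining pair without shLuc replicate 2 (2, SD 1.41). Counting Aldoa by its shorter entry, an alternative chosen after seeing the data, left it with 2 libraries and 4 members in every library.

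Unknown depth and an unstated threshold limit every missing peak. The files used here hold no expression values, so how much each gene was used cannot be given from them.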
